A study of Glycine max with 12 samples.

Results

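Soybean (Glycine max) seeds that overexpress GmZF351 were compared with wild-type seeds, using 3 RNA-seq libraries of each genotype out of 12 libraries in the series. The GmZF351 overexpressor (GmZF351 OE) is labelled transgenic soybean and the wild type is the cultivar Jack; both were sampled as seed at a stage called H3. Seeds overexpressing GmZF392 or GmNFYA, with 3 libraries each, entered the same fit and serve here only to show where the GmZF351 overexpressor differs. What H3 stands for, the promoter of the transgenes and the cultivar that was transformed are not given in the sources used here. The 3 GmZF351 overexpressor libraries share a code in their titles and may come from a single transgenic line, so effects of the line and of the overexpressed gene cannot be told apart. Nothing states that the libraries came from separate plants, so p-values measure how these libraries spread, and that spread may be technical. All 47095 genes of the deposited table were considered, and 34252 had enough counts to be tested.

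GmZF351 is a tandem CCCH zinc finger protein, and GmZF392 belongs to the same family; both are known as regulators of seed oil in soybean. A maturing legume seed fills its cotyledons with storage globulins (glycinins and conglycinins), with triacylglycerol held in oil bodies that oleosins coat, and with protective late embryogenesis proteins. The seed coat around the embryo imports sugar, which transporters of the SWEET family release, and lays down proanthocyanidins.

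The 6 libraries held 18752503, 18796009 and 20913879 counted fragments in the GmZF351 overexpressor and 17902216, 19270208 and 22652420 in the wild type. Levels are in CPM, fragment counts relative to the scaled library total, in the order of libraries 1, 2 and 3 unless a mean is named. A count of 0 allows up to 3 counts, or 0.136 to 0.181 CPM in these 6 libraries, by counting error only. GmZF351 overexpressor library 2 stood apart among these 6 libraries. It had the highest loading of all 12 libraries (0.629) on the first principal component, which held 36.7% of the variance, and its deviation from the genotype mean correlated with the exon length of the gene across 30877 genes (r = -0.57, against 0.39 and -0.051 in libraries 1 and 3 and -0.027, -0.41 and -0.023 in the wild type). Some libraries of the other genotypes in the fit had such trends too. There r reached -0.416 in GmZF392 overexpressor library 3 and 0.583 in GmNFYA overexpressor library 1, which had the lowest loading (-0.546). The part of this trend in the results was not tested gene by gene. Counts without GmZF351 overexpressor library 2 are given beside the main ones.

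The GmZF351 transcript itself came first as a check of the labels. Glyma.06G290100, the locus taken here as GmZF351 from knowledge of the study (chromosome 6, 47496646 to 47498247, minus strand), had 895, 904 and 1009 CPM in the GmZF351 overexpressor, against 20.5, 17.9 and 17.6 CPM in the wild type. Every GmZF351 overexpressor library was far above every wild-type library, and the mean was 50.1-fold higher (log2 5.65, SE 0.16, adjusted p = 4.13e-10, edgeR's quasi-likelihood test). The GmZF392 overexpressor had 38.3, 39.3 and 42 CPM and the GmNFYA overexpressor 28.3, 26.8 and 25.6 CPM, both between these levels. Counts do not separate fragments of the transgene from those of the endogenous gene. The loci taken here as the other overexpressed genes, which the labels do not give, did not pass the threshold. Glyma.12G205700 (taken as GmZF392) had 83.3, 79.4 and 95.2 CPM in GmZF351 OE against 72, 70.7 and 68.3 CPM in the wild type (adjusted p = 0.53). NF-YA02 (taken as GmNFYA) had 41.6, 37.2 and 44 CPM in GmZF351 OE against 43.4, 40.6 and 41.5 CPM in the wild type (adjusted p = 0.969).

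**Figure D1:**
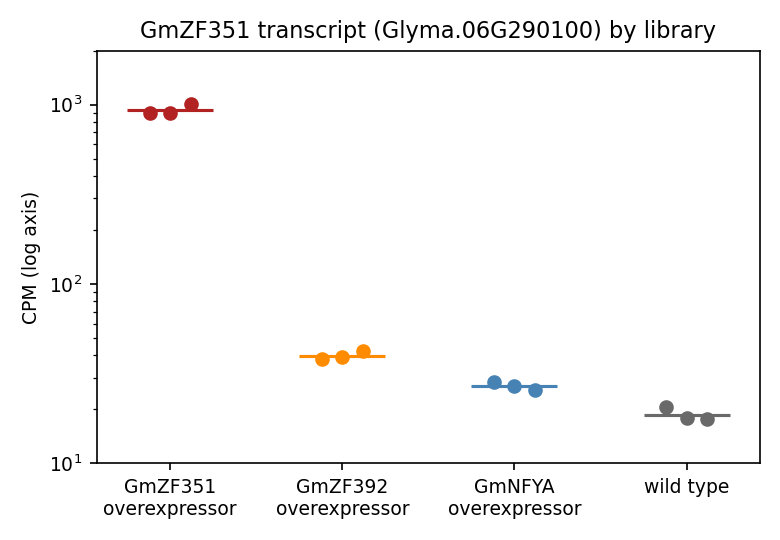
CPM of Glyma.06G290100 in each of 12 libraries (points, log axis) with the mean of each genotype (bar). The 3 GmZF351 overexpressor libraries lie between 895 and 1009 CPM and the 3 wild-type libraries at or below 20.5 CPM.

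Of 34252 tested genes, 744 (2.17%) passed a Benjamini-Hochberg adjusted p of 0.05 between the GmZF351 overexpressor and the wild type. There were 386 genes that rose (1.13%) and 358 that fell (1.05%), with a median change of 2.40-fold among those that rose and 1.98-fold among those that fell. Of the 744 genes 429 (1.25% of those tested) differed by at least 2-fold, 255 of them higher and 174 lower, and 74 by at least 8-fold in the fit, 37 in each direction. The median log2 fold change of all tested genes was 0.0075. None of the 744 genes overlapped between the genotypes, but neither did 5657 genes in all (16.5%), and 4050 had an unadjusted p under 0.05. Without GmZF351 overexpressor library 2 the count was 512 (261 rose and 251 fell), of which 457 were also among the 744. It was 404 without GmZF351 overexpressor library 3 and 442, 394 and 392 without wild-type library 1, 2 and 3.

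The genes that rose took 22782, 25513 and 23346 CPM of the GmZF351 overexpressor libraries in sum, against 8849, 10484 and 10201 CPM of the wild-type libraries, and those that fell took 7229, 7348 and 7391 CPM in GmZF351 OE against 13635, 13554 and 13545 CPM in the wild type. These sums describe the calls and carry no test. In bulk seeds, fewer cells of a type and less RNA per cell cannot be told apart.

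**Figure D2:**
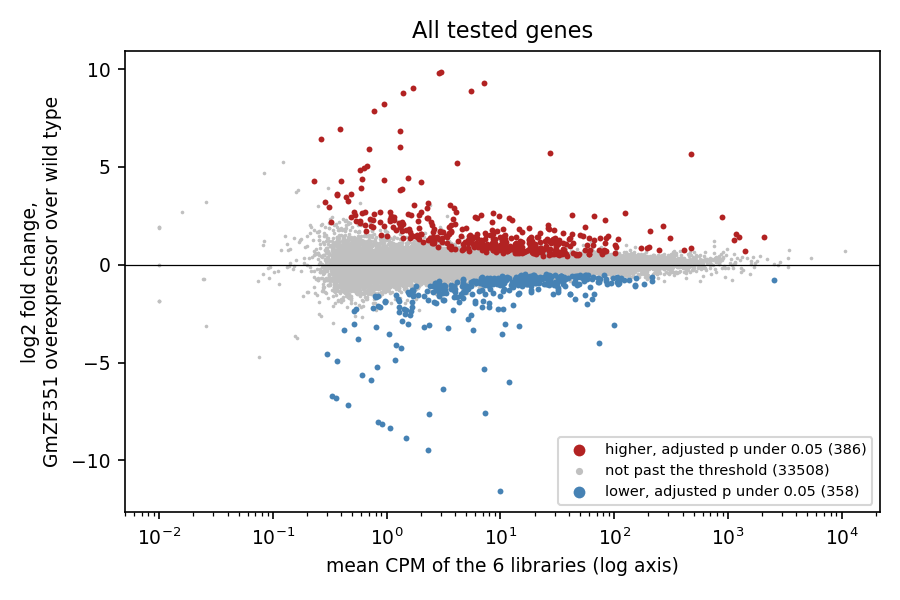
Log2 fold change of the GmZF351 overexpressor over the wild type for 34252 tested genes, against the mean CPM of the 6 libraries (log axis, values under 0.01 drawn at 0.01). Red and blue points are the 386 genes that rose and the 358 that fell, and the median of all genes lies at 0.0075.

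Most of the called genes have no symbol. RefSeq gives a symbol to 85 of the 744 genes, of which 52 rose and 33 fell (85 of 1690 tested genes with a symbol, 5.03%). The other 659, known here only by their Glyma identifier, were 334 genes that rose and 325 that fell, out of 32562 tested genes without a symbol (2.02%). Genes with no RefSeq gene paired to them made up 80 of the calls, out of 3825 such genes tested (2.09%). The median level of the genes without a symbol, in the genotype with the higher mean, was 11.7 CPM among those that rose and 13.1 CPM among those that fell. Of these 659 genes, 18 that rose and 17 that fell averaged at least 100 CPM in that genotype, while 15 and 9 stayed under 1 CPM. The tables used here describe no product for these genes, and none is given.

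Among the most abundant of them, Glyma.09G178100 (chromosome 9, 41186554 to 41191566, minus strand) had 3101, 3128 and 2814 CPM in the GmZF351 overexpressor, against 1123, 1161 and 1134 CPM in the wild type. The genotypes did not overlap, and the level was 2.65-fold higher (log2 1.4, SE 0.14, adjusted p = 6.90e-05). Glyma.13G035200 (chromosome 13, 9990949 to 9997473, plus strand) had 1366, 1937 and 1177 CPM in the GmZF351 overexpressor, against 240, 313 and 267 CPM in the wild type, a level 5.46 times as high, with library 2 the highest (log2 2.45, SE 0.23, adjusted p = 4.15e-05). Glyma.10G028300 had 412, 432 and 486 CPM in GmZF351 OE against 176, 167 and 168 CPM in the wild type (log2 1.38, SE 0.13, adjusted p = 5.86e-05), and the 3 values of each genotype lay close together. Glyma.13G168700 had 604, 596 and 644 CPM in GmZF351 OE against 337, 352 and 323 CPM in the wild type and rose by less (log2 0.86, SE 0.13, adjusted p = 0.00298). Its call was lost with only the 2 groups compared in the fit (adjusted p = 0.0517). Glyma.08G341000 had 1526, 1795 and 1875 CPM in GmZF351 OE against 1017, 1109 and 1061 CPM in the wild type and Glyma.13G271200 had 479, 624 and 430 CPM in GmZF351 OE against 289, 323 and 296 CPM in the wild type. These last 2 calls depended on single libraries: the call of Glyma.08G341000 was lost on leaving out GmZF351 overexpressor library 2 or 3 or any single wild-type library (adjusted p = 0.053 to 0.117), and that of Glyma.13G271200 on leaving out any 1 of the 6 libraries (adjusted p = 0.0605 to 0.166).

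The 7 abundant genes without a symbol that fell had log2 fold changes of -1.06 to -0.63. Glyma.14G005300 had 92.3, 96.8 and 109 CPM in the GmZF351 overexpressor, against 230, 203 and 190 CPM in the wild type (log2 -1.06, SE 0.14, adjusted p = 9.27e-04). Glyma.02G307700 had 145, 150 and 162 CPM in GmZF351 OE against 290, 269 and 263 CPM in the wild type (log2 -0.84, SE 0.13, adjusted p = 0.00311), and here too every GmZF351 overexpressor library was below every wild-type library. The other 5 were Glyma.14G070600, Glyma.16G145800, Glyma.02G241400, Glyma.03G086200 and Glyma.11G070200, with log2 fold changes of -0.79, -0.78, -0.7, -0.67 and -0.63. Each of these 5 lost its call when single libraries were left out. Glyma.14G070600 lost it on leaving out GmZF351 overexpressor library 3 or wild-type library 1 (adjusted p = 0.0527 to 0.0607), Glyma.16G145800 on leaving out GmZF351 overexpressor library 1 or 3 or wild-type library 1 or 2 (adjusted p = 0.0724 to 0.0918) and Glyma.02G241400 on leaving out GmZF351 overexpressor library 1 or 3 or wild-type library 2 or 3 (adjusted p = 0.0723 to 0.139). Glyma.03G086200 lost it on leaving out GmZF351 overexpressor library 3 or wild-type library 2 or 3 (adjusted p = 0.0529 to 0.0845) and Glyma.11G070200 on leaving out any 1 of the 6 libraries (adjusted p = 0.0511 to 0.194).

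**Figure D3:**
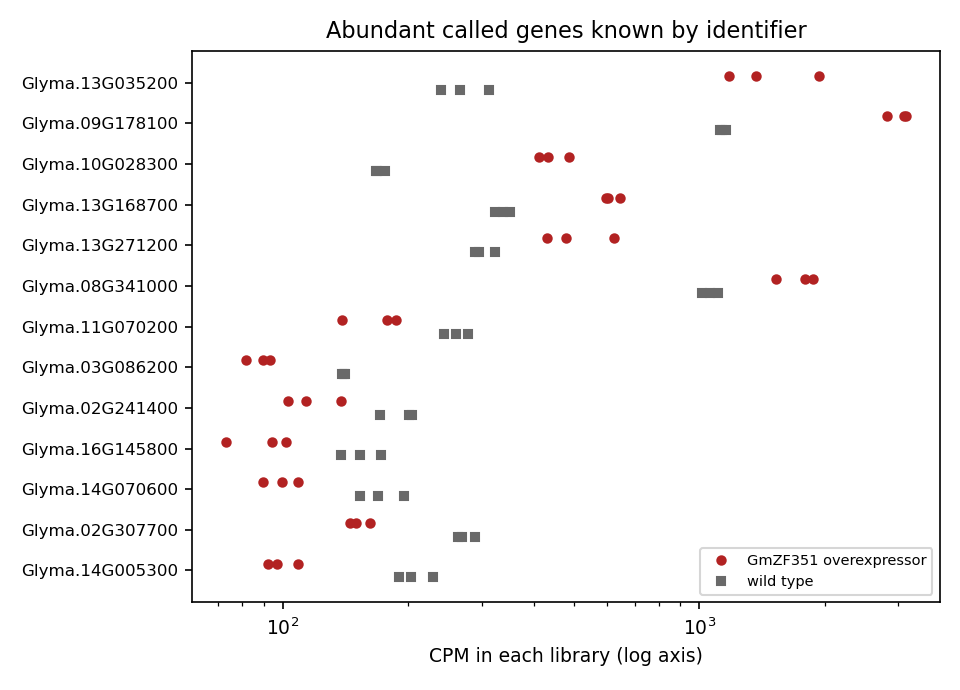
CPM in each library (log axis) of the 13 genes without a symbol among the most abundant called genes, the GmZF351 overexpressor as circles above the wild type as squares. The upper 6 genes rose and the lower 7 fell, and no gene has overlapping genotypes.

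Far larger differences occurred at lower levels. Glyma.13G027800 (chromosome 13, 5857624 to 5905747, plus strand) had 55.4, 45.9 and 58.6 CPM in the GmZF351 overexpressor, against 1.23, 0.634 and 1.21 CPM in the wild type (log2 5.71, SE 0.24, adjusted p = 2.71e-08). Glyma.03G098600 had 6.37, 10.4 and 7.58 CPM in GmZF351 OE against 0.0981, 0.272 and 0.276 CPM in the wild type (log2 5.2, SE 0.33, adjusted p = 1.84e-06). Glyma.13G027800 averaged 59.8 ± 2.02 CPM in the GmZF392 overexpressor and 50.5 ± 9.34 CPM in the GmNFYA overexpressor (SD, n = 3 each), and Glyma.03G098600 averaged 7 ± 1.43 CPM in the GmZF392 overexpressor and 4.97 ± 0.245 CPM in the GmNFYA overexpressor. Neither gene passed between GmZF351 and GmZF392 overexpressors (log2 -0.17, 95% interval -0.54 to 0.21, and 0.21, -0.27 to 0.69).

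The nearby gene Glyma.13G027600 (chromosome 13, 5816014 to 5832962, plus strand), varied within the genotype, with 12.5, 0.482 and 4.4 CPM in the GmZF351 overexpressor, against 0, 0 and 0 CPM in the wild type. The call of Glyma.13G027600 was lost on leaving out GmZF351 overexpressor library 1 or 3 or any single wild-type library (adjusted p = 0.0692 to 0.108). Glyma.18G103500 had 3.95, 3.67 and 3.76 CPM in GmZF351 OE against 0.147, 0.317 and 0.11 CPM in the wild type (log2 4.23, SE 0.38, adjusted p = 3.61e-05), and Glyma.01G043951 had 7.51, 4.58 and 7.26 CPM in GmZF351 OE against 0.981, 0.634 and 0.662 CPM in the wild type (log2 3.08, SE 0.26, adjusted p = 1.62e-05). For both genes every GmZF351 overexpressor library was above every wild-type library.

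On the falling side, Glyma.16G206100 (chromosome 16, 36874844 to 36875842, minus strand) had 6.47, 11.7 and 7.48 CPM in the GmZF351 overexpressor, against 153, 136 and 127 CPM in the wild type (log2 -4.02, SE 0.28, adjusted p = 4.32e-06). Glyma.20G151700 had 0.238, 0.421 and 0.424 CPM in GmZF351 OE against 26.9, 23.1 and 19.8 CPM in the wild type (log2 -6.01, SE 0.4, adjusted p = 2.63e-06). Glyma.20G158500, on the same chromosome, had 0.523, 0.301 and 0.159 CPM in GmZF351 OE against 13, 13.9 and 14.8 CPM in the wild type (log2 -5.35, SE 0.31, adjusted p = 6.87e-07). For all 3 genes every GmZF351 overexpressor library was far below every wild-type library, and each fell under all alternative settings tried. They were also low in the other overexpressors: Glyma.16G206100 averaged 6.43 ± 2.76 CPM in the GmZF392 overexpressor and 5.11 ± 0.817 CPM in the GmNFYA overexpressor, and the other 2 genes stayed under 1 CPM on average. Glyma.09G158600 and Glyma.09G158700 were different in that respect. Glyma.09G158600 had 0.761, 3.73 and 0.583 CPM in the GmZF351 overexpressor, against 15, 23.4 and 18 CPM in the wild type, and averaged 0.466 ± 0.17 CPM in the GmZF392 overexpressor and 45 ± 11.6 CPM in the GmNFYA overexpressor. Glyma.09G158700 had 0.285, 1.14 and 1.64 CPM in the GmZF351 overexpressor, against 16, 8.29 and 6.84 CPM in the wild type, and averaged 1.36 ± 0.219 CPM in the GmZF392 overexpressor and 18 ± 8.62 CPM in the GmNFYA overexpressor. Both were lower in the GmZF351 than in the GmNFYA overexpressor (adjusted p = 1.51e-04 and 7.50e-04). Against the wild type, the call of Glyma.09G158700 was lost without GmZF351 overexpressor library 2 when exon-length offsets were also used (adjusted p = 0.144).

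A set of 39 called genes was close to on or off between the genotypes, with at most 3 counts in every library of one and at least 10 in each library of the other. Of these, 20 were detected in the GmZF351 overexpressor and 19 in the wild type; 36 have no symbol and 19 have no RefSeq gene paired with them. A further 2 genes met the count rule without passing the threshold. The set also held genes near the floor. Only 26 of the 39 met the stricter filter of at least 1 CPM in at least 3 libraries. With 1 of the 6 libraries left out, 16 to 19 of the 39 rose and 14 to 16 fell. The ratio was 5.48-fold for LBD13, and at least 4.11-fold for Glyma.18G060701 against the floor of 3 counts per library. Since the rule uses the contrast itself, the following values, from the largest ratios, are a description. Glyma.08G261500 had 12.2, 15.4 and 15.6 CPM in the GmZF351 overexpressor, against 0, 0 and 0.0552 CPM in the wild type, a ratio of 864-fold (95% counting interval 155 to 34200), and Glyma.16G211400 had 10.5, 12.5 and 9.97 CPM in GmZF351 OE against 0, 0 and 0.0552 CPM in the wild type, a ratio of 662-fold (95% counting interval 118 to 26200). Glyma.08G273000 had 5.04, 6.74 and 6.31 CPM in GmZF351 OE against 0, 0 and 0 CPM in the wild type, at least 40.3-fold higher against the floor of 3 counts per library. In each of these 3 genes the wild-type libraries held at most a single fragment in sum.

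In the other direction, Glyma.03G068900 had 0, 0 and 0 CPM in the GmZF351 overexpressor, against 23.5, 20 and 15.8 CPM in the wild type, at least 123-fold lower against that floor, and Glyma.03G065700 had 0, 0 and 0 CPM in GmZF351 OE against 4.66, 3.9 and 5.3 CPM in the wild type, at least 28.7-fold lower. Glyma.03G067100 had 0, 0.0602 and 0.159 CPM in GmZF351 OE against 13.6, 14.1 and 16 CPM in the wild type, a ratio of the wild type over the GmZF351 overexpressor of 205-fold (95% counting interval 79.8 to 754). The group with the lower level was at 0 in all 3 libraries for 14 of the 39 genes. Of the 3 with a symbol, CRK48 and CRK62 are named as cysteine-rich receptor-like kinases. CRK48 had 1.38, 0.843 and 1.7 CPM in the GmZF351 overexpressor, against 0.0981, 0 and 0 CPM in the wild type, and CRK62 had 1.33, 0.963 and 1.17 CPM in GmZF351 OE against 0.0491, 0 and 0.11 CPM in the wild type. LBD13, named for the LOB domain transcription factors, had 0.666, 1.08 and 0.742 CPM in GmZF351 OE against 0.147, 0.136 and 0.166 CPM in the wild type. The call of LBD13 was lost on leaving out any 1 of the 6 libraries (adjusted p = 0.0779 to 0.182).

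The same 39 genes were then compared directly between overexpressors. These contrasts hold no wild-type library, but they reuse the GmZF351 overexpressor libraries that helped to choose the 39 genes. A gene at 0 in both overexpressors, such as Glyma.03G068900, could not pass, so the counts that follow are a description. Between GmZF351 and GmZF392 overexpressors 0 of the 39 passed the threshold, where 137 of all genes did (0.4%), and between GmZF351 and GmNFYA overexpressors 6 passed, where 376 of all genes did (1.1%). In those comparisons 5 and 10 of the 39 had an unadjusted p under 0.05, where 3290 and 4328 of all 34252 tested genes did. The DESeq2 Wald test called 2 and 7 of the 39, where it called 359 and 954 of all tested genes. A p that misses the threshold does not show that levels are alike, and counts were low in some of these genes. Glyma.01G064800 was one of the 6: it had 2.9, 2.59 and 2.86 CPM in the GmZF351 overexpressor, against 0.615, 0.314 and 0.599 CPM in the GmNFYA overexpressor (log2 2.44, SE 0.3, adjusted p = 0.00229), and 0 counts in the wild type. Glyma.01G049300 had 0 counts in the GmZF351 overexpressor, against 1.08, 0.627 and 0.599 CPM in the GmNFYA overexpressor and 1.42, 0.725 and 0.607 CPM in the wild type. Glyma.08G273000, in contrast, averaged 6.03 ± 0.885 CPM in the GmZF351 overexpressor, 6.72 ± 0.564 CPM in the GmZF392 overexpressor and 6.09 ± 1.11 CPM in the GmNFYA overexpressor, and was at 0 in the wild type. Against the wild type, 32 of the 39 were called in the GmZF392 overexpressor (2.2% of all tested genes were). In the GmNFYA overexpressor 32 were called too (1.56% of all tested genes were). Nothing is read from these counts, since the same wild-type libraries chose the 39 genes. Whether these differences follow the transgene, the line or the cultivar cannot be told apart in this design.

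**Figure D4:**
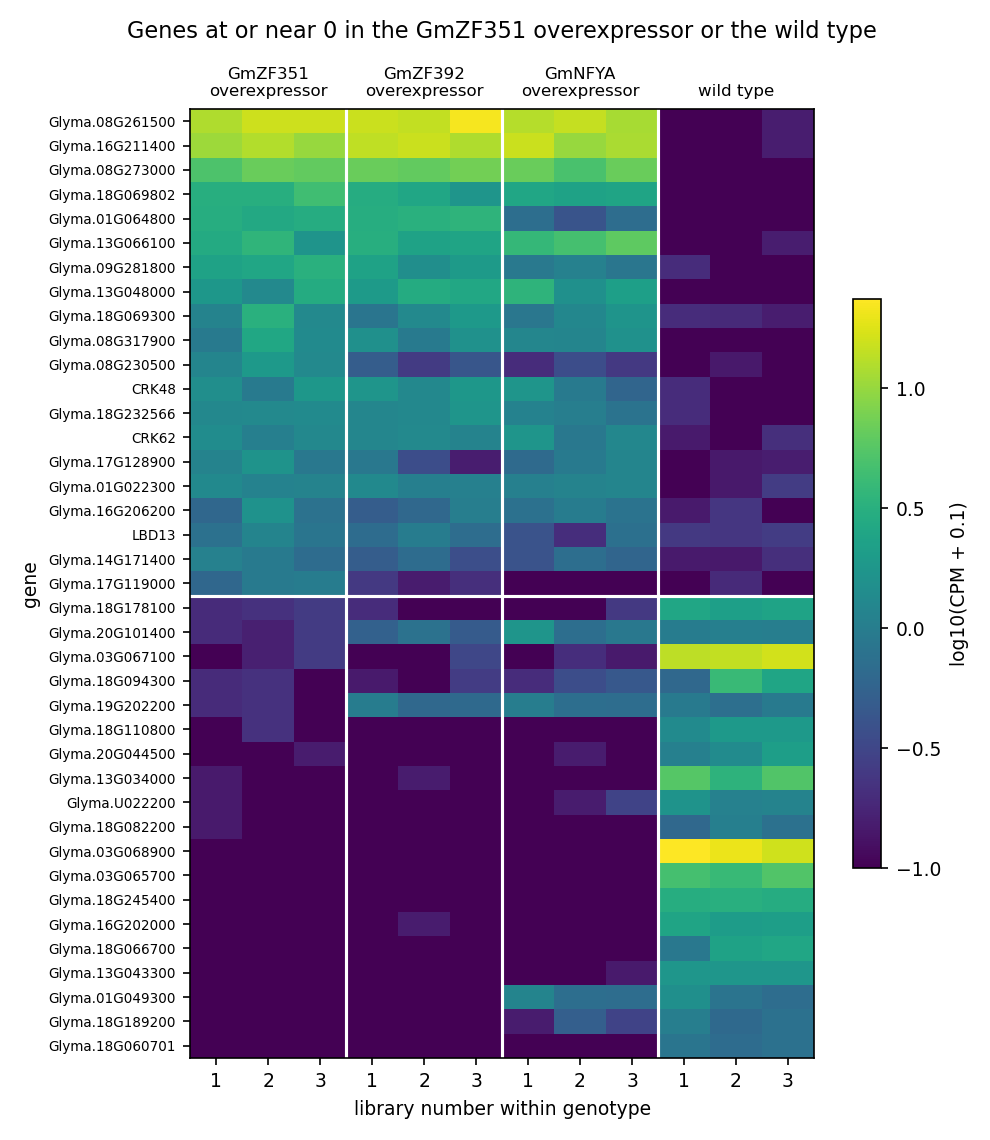
Level of the 39 on or off genes in 12 libraries, as log10 of CPM plus 0.1, with genotypes from the GmZF351 overexpressor at the left to the wild type at the right. The 20 upper genes were detected in the GmZF351 overexpressor and the 19 lower ones in the wild type. Of the 39, 6 passed the threshold between the GmZF351 and GmNFYA overexpressors (1.1% of all tested genes did). Between the GmZF351 and GmZF392 overexpressors 0 passed (0.4% of all tested genes did).

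The share of called genes varied along the chromosomes, which is described here without a test. In windows of 2 Mb with at least 20 tested genes the median share called was 1.97%. The 7 windows with the highest shares among those with at least 5 calls, chosen after their values were seen and given with no test, held 57 called genes of 618 tested (9.22%) and 16 of the 39 on or off genes. The same windows held 57 genes called in the GmZF392 overexpressor (2.2% over all genes) and 47 in the GmNFYA overexpressor (1.56% over all genes) against the wild type, in comparisons that share the wild-type libraries. Between overexpressors they held 1 gene called in GmZF351 OE against the GmZF392 overexpressor (0.4% over all genes). Against the GmNFYA overexpressor they held 3 (1.1% over all genes). At such shares few calls would fall among 618 genes, so nothing is read from these low counts. Of the 7 windows, 1 lay on chromosome 3 (14 to 16 Mb, 6 of 18 genes called), 1 on chromosome 1 (4 to 6 Mb, 8 of 85) and 1 on chromosome 16 (36 to 38 Mb, 12 of 159). The other 4 were on chromosome 18, at 6 to 8 Mb (9 of 95), 8 to 10 Mb (5 of 60), 12 to 14 Mb (5 of 36) and 52 to 54 Mb (12 of 165). Chromosome 18 also had the highest share of any chromosome (64 of 1682 genes, 3.80%) and held 12 of the 39 on or off genes, while chromosome 19 had the lowest share (1.17%). Positions are those of the annotation Wm82.a4.v1, which describes the cultivar Williams 82.

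Runs of 3 neighbouring called genes occurred at 3 places. Glyma.03G066700, Glyma.03G066800 and Glyma.03G067100 formed one on chromosome 3 (15144577 to 15337994). They did not move together: Glyma.03G066800 rose, with 14.6, 25.5 and 19.7 CPM in GmZF351 OE against 8.29, 6.52 and 7.28 CPM in the wild type, while Glyma.03G066700 fell, with 9.08, 7.89 and 10.9 CPM in GmZF351 OE against 23.7, 14.8 and 14.2 CPM in the wild type, and Glyma.03G067100 was the on or off gene described above. The call of Glyma.03G066700 was lost on leaving out any 1 of the 6 libraries (adjusted p = 0.0526 to 0.188). A run on chromosome 18 (6371118 to 6507566) held Glyma.18G068800, Glyma.18G069300 and Glyma.18G069802, and all 3 rose. Glyma.18G068800 had 30, 22.8 and 29.5 CPM in GmZF351 OE against 12.1, 13.6 and 14 CPM in the wild type, while Glyma.18G069300 and Glyma.18G069802 were on or off genes detected in the GmZF351 overexpressor. The third run, on chromosome 8 (45119915 to 45143451), held Glyma.08G341800 and Glyma.08G342100, which rose, and Glyma.08G342000, which fell. Glyma.08G341800 had 4.99, 6.32 and 4.45 CPM in GmZF351 OE against 1.57, 2.04 and 1.6 CPM in the wild type, Glyma.08G342000 had 2.43, 3.97 and 4.61 CPM in GmZF351 OE against 10.4, 9.24 and 8.33 CPM in the wild type and Glyma.08G342100 had 86.5, 94 and 98.2 CPM in GmZF351 OE against 48.6, 57.1 and 60.3 CPM in the wild type. The call of Glyma.08G342000 was lost on leaving out GmZF351 overexpressor library 1 or any single wild-type library (adjusted p = 0.054 to 0.0878), and that of Glyma.08G342100 on leaving out GmZF351 overexpressor library 2 or 3 or any single wild-type library (adjusted p = 0.0594 to 0.127). In all, 79 of the 742 called genes on the 20 chromosomes had a called neighbour, where 2.17% of all tested genes were called. How many would have one by chance was not worked out, so nothing is read from this count. Counting named no strand option, so fragments of overlapping neighbours on opposite strands cannot be separated.

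Seed storage protein genes with a symbol were among those that rose. Of 9 tested globulin genes 5 rose (55.6%) and 0 fell, where 2.17% of all tested genes and 5.03% of those with a symbol were called and 1.13% of all rose. The median log2 fold change was 1.56, against 0.0075 over all tested genes. GY1, a glycinin gene, had 281, 132 and 234 CPM in the GmZF351 overexpressor, against 27.7, 35 and 41.2 CPM in the wild type, with library 2 the lowest of the overexpressor but above all wild-type libraries (log2 2.64, SE 0.27, adjusted p = 1.00e-04). Its neighbour GY2 had 147, 110 and 160 CPM in GmZF351 OE against 25.5, 29.5 and 29.2 CPM in the wild type (log2 2.31, SE 0.16, adjusted p = 4.42e-06) and GY4 had 11, 10.4 and 13.2 CPM in GmZF351 OE against 2.26, 2.13 and 1.43 CPM in the wild type (log2 2.56, SE 0.21, adjusted p = 1.46e-05). CG-1, a conglycinin gene, had 1793, 1679 and 1754 CPM in GmZF351 OE against 581, 574 and 619 CPM in the wild type, with the smallest SE of the 5 (log2 1.56, SE 0.14, adjusted p = 2.09e-05). CG-BETA-2, for a conglycinin beta subunit, had 2.71, 11.9 and 6.26 CPM in GmZF351 OE against 0.883, 0.77 and 1.1 CPM in the wild type (log2 2.91, SE 0.44, adjusted p = 0.0026), a wide spread among the overexpressor libraries without overlap. The other 4 globulin genes did not pass, with log2 fold changes of 1.17 (GY3), 0.52 (CG-3), 0.14 (GY7) and -0.63 (CG-BETA-1). Fragments of GY1 and GY2, and of the conglycinin genes, can be split between near-identical copies, so the single members are uncertain.

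Other genes for proteins of the filling cotyledon rose too. P34, a seed vacuolar protein and allergen, had 328, 344 and 292 CPM in the GmZF351 overexpressor, against 84.3, 99.6 and 103 CPM in the wild type (log2 1.75, SE 0.16, adjusted p = 4.71e-05). LOX2, a seed lipoxygenase gene, had 85.3, 53.5 and 81.3 CPM in GmZF351 OE against 13.4, 12.2 and 12.4 CPM in the wild type (log2 2.53, SE 0.21, adjusted p = 1.68e-05). LOX3, another seed lipoxygenase gene, had 90.4, 77.8 and 94.9 CPM in GmZF351 OE against 37.6, 31.3 and 31.6 CPM in the wild type (log2 1.39, SE 0.14, adjusted p = 1.06e-04), and neither gene had overlapping genotypes. KTI1, a Kunitz trypsin inhibitor gene, had 11.1, 17.9 and 12.2 CPM in GmZF351 OE against 2.7, 2.36 and 4.03 CPM in the wild type (log2 2.19, SE 0.25, adjusted p = 2.41e-04). In all, 3 of 6 tested lipoxygenase genes rose (median log2 0.76) and 4 of 8 genes of the list of protease inhibitors, lectin and P34 rose (median 0.97), and none fell in either, where 1.13% of all tested genes rose. LOX1.1 was the third lipoxygenase, with 5.99, 5.48 and 7.74 CPM in GmZF351 OE against 3.24, 2.94 and 2.87 CPM in the wild type. The call of LOX1.1 was lost on leaving out GmZF351 overexpressor library 1 or 3 or any single wild-type library (adjusted p = 0.0511 to 0.123). The Bowman-Birk inhibitor gene D-II had 85.8, 158 and 84.9 CPM in GmZF351 OE against 35.2, 52 and 38.4 CPM in the wild type, and KTI-2 had 91.4, 181 and 130 CPM in GmZF351 OE against 60.2, 75.7 and 65 CPM in the wild type. The D-II call was lost on leaving out GmZF351 overexpressor library 2 or 3 or any single wild-type library (adjusted p = 0.051 to 0.152) and the KTI-2 call on leaving out GmZF351 overexpressor library 2 or 3 or any single wild-type library (adjusted p = 0.0992 to 0.179). Only 2 members of that list were called without GmZF351 overexpressor library 2 or 3 or any single wild-type library.

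Marker lists of seed tissues are given beside these results. Of 11 tested embryo and cotyledon markers 9 rose, which include genes described above, where 1.13% of all tested genes rose. Their summed level was 3051 to 3381 CPM in the GmZF351 overexpressor, 4083 to 4433 CPM in the GmZF392 overexpressor and 2852 to 3000 CPM in the GmNFYA overexpressor, against 1164 to 1226 CPM in the wild type. The sum was thus above all wild-type libraries in every library of each overexpressor. Of 7 tested seed coat markers 0 rose and 2 fell, LAR1 and VSPA, where 1.05% of all tested genes fell. The summed level of these markers was 5393 to 8437 CPM in GmZF351 OE against 4382 to 6292 CPM in the wild type. SCB1 alone made up 90.5 to 93.7% of this sum in GmZF351 OE and 80.9 to 88.5% in the wild type, and did not pass (adjusted p = 0.639). Summed without SCB1, the other 6 tested markers had 452 to 532 CPM in GmZF351 OE against 682 to 837 CPM in the wild type. This sum was made after these values were seen. Its direction turned, but it holds the 2 called genes. LAR1 had 20.2, 20.4 and 23.2 CPM in GmZF351 OE against 188, 189 and 161 CPM in the wild type. VSPA had 33.1, 28.2 and 28.1 CPM in GmZF351 OE against 101, 95.5 and 101 CPM in the wild type. ANR1, CHS8 and Ep overlapped between the genotypes. CHS7 was lower in every GmZF351 overexpressor library but did not pass. None of the 4 green tissue markers (1220 to 1762 CPM in GmZF351 OE against 1664 to 2047 CPM in the wild type) and none of the 5 dividing tissue markers (242 to 283 CPM in GmZF351 OE against 286 to 317 CPM in the wild type) passed by edgeR or the DESeq2 Wald test, and 1 gene of each list had an unadjusted p under 0.05. No marker found in the table was at 0 in all libraries. The part of tissue proportions or of seed age in the results was not tested.

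Among genes of oil synthesis the lists varied in their share called, against 2.17% of all tested genes and 5.03% of those with a symbol. All 15 tested genes of plastid fatty acid synthesis missed the threshold, with log2 fold changes of -0.21 to 0.34, a median of 0.00 and 95% intervals that reach at most from -0.54 to 0.89. None of the 15 had an unadjusted p under 0.05, and 0 passed by the DESeq2 Wald test. SACPD-C, a stearoyl desaturase gene, had 205, 235 and 163 CPM in GmZF351 OE against 119, 214 and 232 CPM in the wild type, and the genotypes overlapped. Among 14 desaturase genes 1 rose and 1 fell (14.3% called). FAD2-1B, an oleate desaturase of seeds, had 286, 304 and 347 CPM in the GmZF351 overexpressor, against 174, 190 and 192 CPM in the wild type (log2 0.75, SE 0.13, adjusted p = 0.00851). The call of FAD2-1B was lost on leaving out GmZF351 overexpressor library 3 (adjusted p = 0.053) and with only the 2 groups compared in the fit (adjusted p = 0.0964). FAD8.2, a plastid omega-3 desaturase gene, had 32.3, 26.8 and 32.1 CPM in GmZF351 OE against 53.7, 46 and 46.1 CPM in the wild type (log2 -0.68, SE 0.14, adjusted p = 0.0183). The call of FAD8.2 was lost on leaving out GmZF351 overexpressor library 2 or 3 or any single wild-type library (adjusted p = 0.0515 to 0.0811).

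Of 5 tested genes of triacylglycerol assembly and oil bodies 2 rose, P89 and P91, both named for oleosins. P91 had 1529, 2303 and 1640 CPM in the GmZF351 overexpressor, against 345, 869 and 825 CPM in the wild type, and P89 had 1539, 1634 and 1576 CPM in GmZF351 OE against 316, 846 and 811 CPM in the wild type. Wild-type library 1 lay far below the other wild-type libraries in both, and all GmZF351 overexpressor libraries lay above them (log2 1.42, SE 0.32, adjusted p = 0.0357, and log2 1.27, SE 0.3, adjusted p = 0.0459). The call of P91 was lost on leaving out GmZF351 overexpressor library 2 or 3 or any single wild-type library (adjusted p = 0.0593 to 0.101) and that of P89 on leaving out any 1 of the 6 libraries (adjusted p = 0.0555 to 0.13), and the counts of these close copies can be split. DGAT1A, an acyltransferase of the last step of triacylglycerol synthesis, had 16.8, 12.8 and 14.8 CPM in GmZF351 OE against 16.3, 13 and 13.2 CPM in the wild type (adjusted p = 0.956). None of the 7 tested embryo regulators passed by edgeR or the DESeq2 Wald test, and 1, ABI5, had an unadjusted p under 0.05. LEC1-A had 165, 254 and 195 CPM in GmZF351 OE against 157, 216 and 186 CPM in the wild type, WRI1A, a regulator of fatty acid synthesis genes, had 55.1, 59.2 and 57.8 CPM in GmZF351 OE against 58.2, 55.5 and 53 CPM in the wild type and ABI5 had 12.6, 7.47 and 10.3 CPM in GmZF351 OE against 5.3, 6.48 and 8.11 CPM in the wild type, with 95% intervals of -0.29 to 0.56, -0.2 to 0.29 and 0.19 to 1.05 on the log2 scale.

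Late embryogenesis and seed maturation genes were mostly on the higher side, with 20 of 23 fold changes above 0 and a median log2 of 0.45, and 3 rose and none fell, where 1.13% of all tested genes rose. LEA5 had 80.7, 168 and 116 CPM in the GmZF351 overexpressor, against 43.3, 56 and 43 CPM in the wild type (log2 1.36, SE 0.27, adjusted p = 0.0188). The call of LEA5 was lost on leaving out GmZF351 overexpressor library 2 or 3 or wild-type library 1 or 3 (adjusted p = 0.0576 to 0.0971). PM24 had 1.57, 1.99 and 1.7 CPM in GmZF351 OE against 0.147, 0.317 and 0.662 CPM in the wild type and PM34 had 119, 164 and 120 CPM in GmZF351 OE against 67.5, 77.1 and 71.4 CPM in the wild type. The PM24 call was lost on leaving out any single GmZF351 overexpressor library or wild-type library 1 or 2 (adjusted p = 0.0626 to 0.14) and the PM34 call on leaving out GmZF351 overexpressor library 2 or 3 or any single wild-type library (adjusted p = 0.0804 to 0.153). No member was called without GmZF351 overexpressor library 2 or 3 or wild-type library 1.

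**Figure D5:**
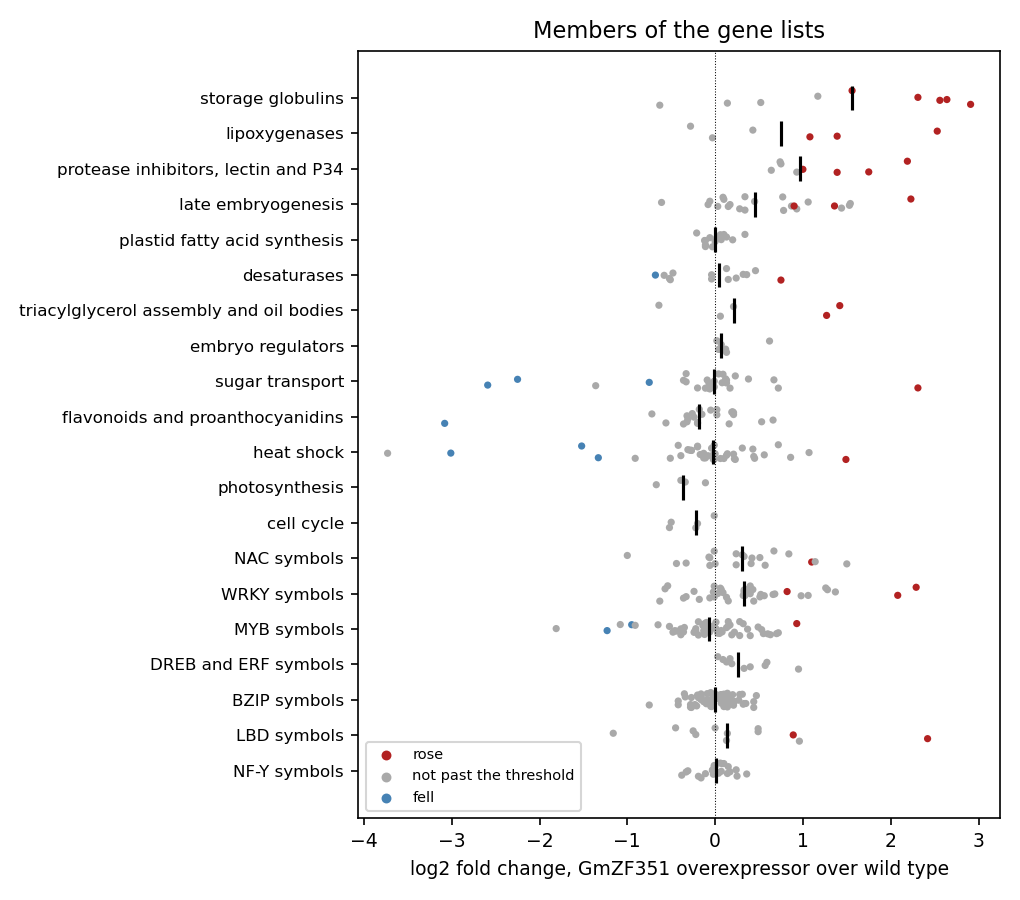
Log2 fold change of the GmZF351 overexpressor over the wild type for the tested members of 20 gene lists, 1 point per gene, with the median of each list as a black bar. Storage globulins have the highest median (1.56) and 5 red points, while plastid fatty acid synthesis genes lie between -0.21 and 0.34.

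Several genes with a symbol fell. LAR1, for leucoanthocyanidin reductase of proanthocyanidin synthesis, had 20.2, 20.4 and 23.2 CPM in the GmZF351 overexpressor, against 188, 189 and 161 CPM in the wild type (log2 -3.08, SE 0.15, adjusted p = 1.40e-07). It was the only one of 23 tested flavonoid genes past the threshold (4.35%, 0 rose, median log2 -0.18), and the genotypes were widely separated. SWEET16 and SWEET17 are sugar transporter genes that lie close together on chromosome 6 (13885783 to 13888665 and 13899833 to 13902581). SWEET16 had 3.57, 2.77 and 3.5 CPM in GmZF351 OE against 18.8, 14.9 and 13.4 CPM in the wild type (log2 -2.25, SE 0.17, adjusted p = 8.95e-06), and averaged 4.97 ± 0.544 CPM in the GmZF392 overexpressor and 15.3 ± 0.881 CPM in the GmNFYA overexpressor. SWEET17 had 1.85, 1.63 and 1.22 CPM in GmZF351 OE against 10.3, 8.61 and 9.66 CPM in the wild type (log2 -2.59, SE 0.2, adjusted p = 8.95e-06), and averaged 3.79 ± 0.421 CPM in the GmZF392 overexpressor and 6.09 ± 0.756 CPM in the GmNFYA overexpressor. Of 27 tested sugar transport genes 3 fell and 1 rose (14.8% called, where 2.17% of all tested genes and 5.03% of those with a symbol were; median log2 -0.01). SWEET5 had 27.5, 30.9 and 24.6 CPM in GmZF351 OE against 43.8, 48 and 47.8 CPM in the wild type. The call of SWEET5 was lost on leaving out GmZF351 overexpressor library 1 or 3 or wild-type library 2 or 3 (adjusted p = 0.0539 to 0.115). SWEET44 rose, with 0.951, 1.99 and 0.848 CPM in GmZF351 OE against 0.147, 0.362 and 0.221 CPM in the wild type. The call of SWEET44 was lost on leaving out GmZF351 overexpressor library 2 or wild-type library 1 or 3 (adjusted p = 0.0818 to 0.0916).

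Heat shock genes also had falling members. HSP90A1, a chaperone gene, had 2.14, 3.67 and 1.48 CPM in the GmZF351 overexpressor, against 13.6, 24.7 and 20.1 CPM in the wild type (log2 -3.01, SE 0.32, adjusted p = 1.58e-04). HSP23.9, for a small heat shock protein, had 18.3, 25.5 and 18.9 CPM in GmZF351 OE against 53.1, 61.9 and 65.2 CPM in the wild type, and HSP90A2 had 6.51, 6.92 and 4.72 CPM in GmZF351 OE against 12.1, 16.9 and 16.6 CPM in the wild type, both without overlap. Of 41 tested heat shock genes 3 fell and 1 rose (9.76% called, where 2.17% of all tested genes and 5.03% of those with a symbol were). The gene that rose was HSF-20, a heat shock factor gene, with 1.43, 1.69 and 1.38 CPM in GmZF351 OE against 0.638, 0.453 and 0.497 CPM in the wild type. The call of HSF-20 was lost on leaving out any 1 of the 6 libraries (adjusted p = 0.0584 to 0.126). No list of clock genes was counted, so E2 and PRR3A are given only as single genes that fell. E2, the soybean counterpart of the clock gene GIGANTEA, had 20.3, 13.5 and 19.5 CPM in GmZF351 OE against 50.4, 39 and 48.3 CPM in the wild type (log2 -1.37, SE 0.2, adjusted p = 0.0021). PRR3A, a pseudo-response regulator gene of the clock, had 4.99, 3.31 and 6.2 CPM in GmZF351 OE against 14.4, 13 and 17.4 CPM in the wild type (log2 -1.62, SE 0.2, adjusted p = 5.88e-04). RCA11, for Rubisco activase, had 2.19, 2.41 and 2.12 CPM in GmZF351 OE against 7.02, 6.25 and 6.95 CPM in the wild type (log2 -1.59, SE 0.22, adjusted p = 0.0015).

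PRP1, a proline-rich cell wall protein gene, was the most abundant gene that fell. It had 1927, 1812 and 1915 CPM in the GmZF351 overexpressor, against 2902, 3292 and 3414 CPM in the wild type (log2 -0.77, SE 0.14, adjusted p = 0.0107). The call of PRP1 was lost on leaving out GmZF351 overexpressor library 3 or wild-type library 2 or 3 (adjusted p = 0.0551 to 0.0613). With only the 2 groups compared in the fit it was lost too (adjusted p = 0.122). GASA29, of the gibberellin-stimulated family, had 99.9, 144 and 122 CPM in GmZF351 OE against 258, 252 and 221 CPM in the wild type (log2 -1.0, SE 0.16, adjusted p = 0.0043), and GASA6 had 0.618, 0.662 and 0.212 CPM in GmZF351 OE against 2.11, 2.72 and 2.26 CPM in the wild type (log2 -2.24, SE 0.41, adjusted p = 0.0108). In both genes the overexpressor libraries were all below the wild type, and the call of GASA6 was lost on leaving out wild-type library 2 (adjusted p = 0.0528).

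Of 229 tested transcription factor genes in 7 families 9 were called (3.93%), where 2.17% of all tested genes and 5.03% of those with a symbol were. Of 39 tested WRKY genes 3 rose and 0 fell. WRKY49 had 7.56, 4.94 and 6.89 CPM in GmZF351 OE against 1.42, 1.68 and 1.49 CPM in the wild type (log2 2.08, SE 0.22, adjusted p = 1.37e-04), WRKY55 had 2.28, 1.93 and 1.64 CPM in GmZF351 OE against 0.491, 0.362 and 0.331 CPM in the wild type (log2 2.29, SE 0.32, adjusted p = 0.0014) and WRKY47 had 17.2, 20.9 and 16.2 CPM in GmZF351 OE against 7.85, 10.9 and 12 CPM in the wild type. The call of WRKY47 was lost on leaving out GmZF351 overexpressor library 2 or wild-type library 1 or 2 (adjusted p = 0.0539 to 0.0599). NAC021 was the single one of 21 NAC genes to rise, with 71.4, 47.4 and 59.2 CPM in GmZF351 OE against 25.1, 26.8 and 31.4 CPM in the wild type (log2 1.1, SE 0.17, adjusted p = 0.0031). Among 59 MYB genes 1 rose, MYB177, and 2 fell, MYB3A and MYB159, but 0 were called without GmZF351 overexpressor library 3 or wild-type library 1. The call of MYB177 was lost on leaving out GmZF351 overexpressor library 1 or 3 or any single wild-type library (adjusted p = 0.0533 to 0.102), that of MYB3A on leaving out GmZF351 overexpressor library 3 or wild-type library 1 (adjusted p = 0.075 to 0.077) and that of MYB159 on leaving out any single GmZF351 overexpressor library or wild-type library 1 or 3 (adjusted p = 0.0512 to 0.0673). Among 12 LBD genes 2 rose, LBD23 and LBD13, and 1 was called on leaving out any 1 of the 6 libraries. LBD23 had 19.2, 26.3 and 28 CPM in GmZF351 OE against 13, 14 and 12.7 CPM in the wild type (log2 0.89, SE 0.15, adjusted p = 0.00554). None of 64 BZIP, 24 NF-Y and 10 DREB and ERF genes passed by edgeR, with 4, 2 and 3 at an unadjusted p under 0.05 and 0, 1 and 1 called by the DESeq2 Wald test. None of 4 photosynthesis and 5 cell cycle genes passed by either tool, with 1 of each list at an unadjusted p under 0.05.

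Outside the lists, RJ2, a resistance gene that governs nodulation specificity, had 2.43, 1.2 and 2.6 CPM in GmZF351 OE against 0.638, 0.589 and 0.386 CPM in the wild type (log2 1.94, SE 0.36, adjusted p = 0.0115). The call of RJ2 was lost on leaving out GmZF351 overexpressor library 3 or wild-type library 3 (adjusted p = 0.0559 to 0.0634). It lies in the window of chromosome 16 named above.

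The direct comparisons between overexpressors show where the GmZF351 overexpressor differs from the others. Against the GmZF392 overexpressor 137 genes passed, 15 higher (0.0438%) and 122 lower (0.356%) in the GmZF351 overexpressor. Against the GmNFYA overexpressor 376 passed, 173 higher (0.505%) and 203 lower (0.593%). Both comparisons share the GmZF351 libraries. Without GmZF351 overexpressor library 3 the counts were 64 and 180, and without library 2 they were 112 and 224. Leaving out library 1 gave 77 and 368. The count against the GmZF392 overexpressor was 86 and 90 without its library 1 or 3, and that against the GmNFYA overexpressor was 205, 163 and 188 without its library 1, 2 or 3.

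A group of 24 genes, picked after their values were seen, passed in the same direction against the wild type and against both other overexpressors, 3 of them higher and 21 lower in the GmZF351 overexpressor. They are described without a further test. Besides GmZF351 itself, the higher ones were Glyma.04G236600 and PIP1-8, an aquaporin gene. Glyma.04G236600 had 22, 19.3 and 21.5 CPM in the GmZF351 overexpressor, against 9.22, 9.79 and 8.33 CPM in the wild type. It stood at 11.8, 12.5 and 12.9 CPM in the GmZF392 overexpressor and at 6.46, 6.64 and 6.49 CPM in the GmNFYA overexpressor. PIP1-8 had 1.81, 3.01 and 1.91 CPM in GmZF351 OE against 0.491, 0.544 and 0.386 CPM in the wild type. The call of PIP1-8 was lost on leaving out any 1 of the 6 libraries (adjusted p = 0.0755 to 0.181).

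Among the 21 lower genes, Glyma.11G063400 (chromosome 11, 4786347 to 4791109, plus strand) had 2.62, 3.07 and 3.18 CPM in the GmZF351 overexpressor, against 27.8, 25.4 and 25.4 CPM in the wild type. It stood at 8.03, 9.81 and 6.72 CPM in the GmZF392 overexpressor and at 22.9, 25.6 and 26.4 CPM in the GmNFYA overexpressor. Its log2 fold changes were -3.15 against the wild type, -1.47 against the GmZF392 overexpressor and -3.08 against the GmNFYA overexpressor, each with an SE of at most 0.17. VSPA, a vegetative storage protein gene, had 33.1, 28.2 and 28.1 CPM in GmZF351 OE against 101, 95.5 and 101 CPM in the wild type (log2 -1.73, SE 0.13, adjusted p = 8.95e-06), and averaged 61.6 ± 6.83 CPM in the GmZF392 overexpressor and 118 ± 8 CPM in the GmNFYA overexpressor. Glyma.11G000900 had 29.3, 26.7 and 28.9 CPM in GmZF351 OE against 73, 87.4 and 89.8 CPM in the wild type (log2 -1.56, SE 0.13, adjusted p = 1.68e-05) and Glyma.09G043500 had 19.2, 25.5 and 23.5 CPM in GmZF351 OE against 125, 82.2 and 70.8 CPM in the wild type (log2 -2.03, SE 0.22, adjusted p = 1.88e-04). Their mean levels in the GmZF392 and GmNFYA overexpressors lay between those of the GmZF351 overexpressor and the wild type.

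For a few of the 21 the other overexpressors were above the wild type. Glyma.15G199600 had 22.1, 19.7 and 16.9 CPM in GmZF351 OE against 52.5, 37.8 and 43.9 CPM in the wild type, and averaged 101 ± 18.6 CPM in the GmZF392 overexpressor and 137 ± 45.5 CPM in the GmNFYA overexpressor. HPS, for the hydrophobic protein from soybean, had 79.1, 136 and 82.6 CPM in GmZF351 OE against 219, 205 and 184 CPM in the wild type, and averaged 303 ± 68.4 CPM in the GmZF392 overexpressor and 370 ± 35.2 CPM in the GmNFYA overexpressor. Glyma.15G119800, the next gene called beside it, had 1.52, 2.53 and 1.06 CPM in GmZF351 OE against 4.37, 5.16 and 4.03 CPM in the wild type, and averaged 7.4 ± 0.467 CPM in the GmZF392 overexpressor and 10.1 ± 0.212 CPM in the GmNFYA overexpressor. HPS can share fragments with close copies, so its level is uncertain. Nothing used here shows whether Glyma.15G119800 is such a copy. Against the wild type, the call of HPS was lost on leaving out GmZF351 overexpressor library 1 or 3 or any single wild-type library (adjusted p = 0.0616 to 0.141), and that of Glyma.15G199600 on leaving out GmZF351 overexpressor library 3 or wild-type library 1 (adjusted p = 0.0647 to 0.081). The call of Glyma.15G199600 was also lost with exon-length offsets (adjusted p = 0.0689), and with these offsets and without GmZF351 overexpressor library 2 (adjusted p = 0.218). With only the 2 groups compared in the fit, HPS (adjusted p = 0.0855) and Glyma.15G119800 (adjusted p = 0.0829) lost their calls.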

How the data were processed

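The authors deposited raw counts of paired-end fragments per gene, which per the file headers were summed over exons with featureCounts 2.0.1 and the annotation Gmax_508_Wm82.a4.v1, with no strand option named in its command. HISAT2 and DESeq2 are also named in the submitters' processing notes, without versions. Exon length from the same table served only for a trend between libraries. All 12 libraries were fitted together in R 4.3.3 with edgeR 4.0.16 (TMM scaling, filterByExpr at its minimum count of 10 and total of 15, robust quasi-likelihood F-test), and p-values were Benjamini-Hochberg adjusted over all 34252 tested genes at 0.05. Genes past that threshold are said to have risen or fallen; SE and 95% intervals come from this fit, and CPM are scaled by TMM. The test was tried first on simulated data with the same spread for every gene and no exon-length trend. These libraries differ from that, so the trial does not show how the test performs on them. An exact test of 3 against 3 libraries cannot give a p below 0.1. Libraries of a genotype differed beyond counting noise, and none was a copy of another.

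Names are RefSeq symbols of assembly Glycine_max_v4.0, given to genes whose span overlapped a RefSeq protein-coding gene by at least 50% of the union (38253 of 47095 genes, 81.2%; 2201 with a symbol; 38.8% of the pairs matched within 100 bp at both ends). Genes were named by rule: the 20 largest changes each way of at least 2-fold without overlap and with a mean of 2 CPM or more, the 10 largest with a symbol and the 10 most abundant each way, members of 20 lists, runs of 3 called neighbours, on or off genes, and the overexpressed genes. A part of the rule on close protein relatives was not applied, as no protein table was used here. The genes, lists and comparisons were chosen with earlier results of these data known. Replicate numbers were not taken to pair the genotypes, and the check is given with the alternatives. Alternatives tried were DESeq2 1.42.0 (size factors and Wald test), no and stricter filters, only the groups compared, a replicate block, exon-length offsets and leaving out each library.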

Additional observations from a re-analysis of the deposited data

How the results depend on the processing

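Genes called between the GmZF351 overexpressor and the wild type numbered 744, and 1332 with exon-length offsets (625 rose and 707 fell, 719 of them among the 744), 1296 with the DESeq2 Wald test (743 among the 744) and 368 with only those 2 groups in the fit (363 among the 744). Leaving out 1 library gave 392 to 575. Against the GmZF392 overexpressor the count was 137, and 291, 359 and 69 under the same 3 settings, with 64 to 112 when 1 library was left out. Against the GmNFYA overexpressor it was 376, and 780, 954 and 123, with 163 to 368 when 1 library was left out. DESeq2 size factors, both filters and leaving out GmZF351 overexpressor library 2 together with exon-length offsets (chosen after seeing the data; 940, 153 and 459) kept each count within 1.5 times. The causes were not tested. Of the 144 named genes past the threshold, 90 stayed past it under each alternative, 54 lost it under at least 1, and none reversed. Losses given above with single genes are mostly those on leaving out 1 library, and other settings also cost some of these calls. The GmZF351 transcript stayed between 5.60 and 5.72 on the log2 scale.

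Same-numbered libraries of the GmZF351 overexpressor and the wild type had deviations correlated at -0.048, 0.513 and -0.204. These values show no steady pairing by number, but they cannot tell whether libraries were paired when they were made. With a replicate block, 645, 117 and 350 genes were called in the 3 comparisons, and the transcript stood at 5.65. Depth limits genes with few counts: a level under 0.136 to 0.181 CPM cannot be told from 0 in a single library.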
